A study of Mus musculus with 12 samples.

Results

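The genes described here are 32 genes of myelin and of the mature oligodendrocyte, measured in the brains of mice that lacked RasGRF2 and of wild-type mice. They were taken as a list of gene symbols, which was drawn up with earlier results of these arrays known. All 32 were measured, each by a single probe set, among 19938 genes that carry 1 symbol. RasGRF2 is a neuronal activator of the small GTPases Ras and Rac. The 4 groups were wild-type (WT) hippocampus, WT olfactory bulb, RasGRF2 knockout (KO, labelled GRF2KO) hippocampus and KO olfactory bulb, with 3 arrays each. All animals were adult mice on the C57BL/6 background, with no treatment, and kept in a conventional facility where they met common pathogens. The same 3 WT and 3 KO animals gave both tissues. Whole tissue was used. The labels do not say how the knockout allele was made or whether the genotypes were littermates.

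Oligodendrocytes wrap axons of the central nervous system in myelin, a stack of lipid-rich membrane that speeds conduction and through which the cell feeds the axon. Compact layers are held together by basic and proteolipid proteins, while the inner, outer and lateral edges keep cytoplasm and carry adhesion and cytoskeletal proteins. Precursor cells that leave the cell cycle switch these genes on together, under transcription factors that include Sox10 and Myrf. Both hippocampus and olfactory bulb hold myelinated fibre tracts beside neurons, astrocytes and microglia.

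The stretch around the transcription start is shown for 5 members that stand for the patterns below. Opalin and Gpr37 differed between the tissues by the same amount in both genotypes, Mog and Mobp were highest on a pair of KO hippocampal arrays, and Tmem88b had the smallest adjusted p of the members in the KO olfactory bulb. Each stretch runs 5′ to 3′ along the gene, from 250 bases before to 50 bases after the start, and comes from RefSeq on build GRCm38.p6. Capitals mark 2 short cores read on both strands, ACAAAG for SOX factors and CTGGCAC or CTGGTAC for MYRF, which do not overlap each other in these stretches. The Opalin stretch (chr19:41077064-41077363, minus strand) holds both cores, Mog (chr17:37023349-37023648, minus strand) a MYRF core and Mobp (chr9:120149492-120149791, plus strand) a run of SOX cores on the opposite strand. Neither core is in the stretches of Gpr37 (chr6:25689931-25690230, minus strand) and Tmem88b (chr4:155785825-155786124, minus strand).
Opalin: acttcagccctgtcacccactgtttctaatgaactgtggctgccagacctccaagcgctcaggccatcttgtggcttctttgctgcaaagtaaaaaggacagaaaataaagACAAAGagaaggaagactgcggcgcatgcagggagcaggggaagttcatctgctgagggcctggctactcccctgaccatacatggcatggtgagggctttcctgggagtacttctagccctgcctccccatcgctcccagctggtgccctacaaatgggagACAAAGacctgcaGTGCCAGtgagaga
Gpr37: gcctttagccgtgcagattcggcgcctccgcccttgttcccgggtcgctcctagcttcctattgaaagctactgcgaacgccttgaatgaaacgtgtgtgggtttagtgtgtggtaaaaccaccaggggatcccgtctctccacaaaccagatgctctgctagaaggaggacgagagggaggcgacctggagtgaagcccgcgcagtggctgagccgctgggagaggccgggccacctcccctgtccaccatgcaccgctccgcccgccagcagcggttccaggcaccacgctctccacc
Mog: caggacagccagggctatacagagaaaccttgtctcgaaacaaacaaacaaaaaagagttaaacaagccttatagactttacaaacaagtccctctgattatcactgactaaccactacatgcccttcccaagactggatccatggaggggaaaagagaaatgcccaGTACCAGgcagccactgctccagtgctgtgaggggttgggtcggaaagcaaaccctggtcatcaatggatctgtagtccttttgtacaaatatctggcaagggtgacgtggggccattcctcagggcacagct
Mobp: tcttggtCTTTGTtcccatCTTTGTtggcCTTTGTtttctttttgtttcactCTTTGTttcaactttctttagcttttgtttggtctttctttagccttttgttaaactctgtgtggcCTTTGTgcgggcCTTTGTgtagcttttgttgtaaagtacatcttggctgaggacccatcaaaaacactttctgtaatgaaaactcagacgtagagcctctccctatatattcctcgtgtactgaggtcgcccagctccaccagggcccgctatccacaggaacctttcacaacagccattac
Tmem88b: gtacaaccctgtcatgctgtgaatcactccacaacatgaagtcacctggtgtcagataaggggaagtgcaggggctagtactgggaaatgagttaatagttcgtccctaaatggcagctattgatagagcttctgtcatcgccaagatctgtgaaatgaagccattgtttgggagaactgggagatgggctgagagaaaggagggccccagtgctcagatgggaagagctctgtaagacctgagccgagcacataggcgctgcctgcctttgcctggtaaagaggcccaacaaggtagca

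Of the 32 members, 24 had such a stretch in the RefSeq table, 33 stretches in all because 5 members had more than 1. The SOX core lay in 9 of the 33, or 27.3%, in Cnp, Gjb1, Mag, Mobp, Opalin, Plekhb1 and Tspan2. Over all 32851 stretches of the table the share was 18.7%. The MYRF core lay in 7 of the 33, or 21.2%, in Cnp, Hapln2, Mag, Mog, Opalin and Tmem125, and in 7.10% of all stretches. Both cores were counted in 2 overlapping stretches of Mag that hold the same letters. Counted by gene, the SOX core lay in 7 of 24 members and 21.0% of all genes, and the MYRF core in 6 of 24 members and 8.10% of all genes. A match is a run of letters and not a binding site.

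Values are RMA (robust multi-array average) intensities on the log2 scale. The medians of the arrays were 6.82 to 6.89 in hippocampus and 6.93 to 6.96 in bulb. Within a tissue, arrays correlated over all probe sets with r of at least 0.984, the lowest value being that of KO hippocampus replicate 6 with WT hippocampus replicate 3. The targeted gene was checked first. In hippocampus Rasgrf2 read 8.64, 8.76 and 8.49 on the KO arrays and 9.32, 9.14 and 9.18 on the WT arrays, so KO lay lower by a log2 difference of -0.58 (SE 0.077, limma adjusted p = 0.00197). In olfactory bulb it read 9.33, 9.35 and 9.43 against 9.52, 9.52 and 9.47, and the difference of -0.14 (SE 0.077) was not past the threshold (adjusted p = 0.532). The KO values lay below the WT values in both tissues, but stayed above the array medians. Whether the probe set lies in the deleted part is not stated in the labels.

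The first comparison asked whether myelin genes differ between KO and WT hippocampus. All 32 members had a higher mean in KO, by 0.013 (Opalin) to 0.38 (Mal) on the log2 scale, with a median of 0.16. None passed the test across all genes at an adjusted p of 0.05, where 0.256% of all genes passed (51 of 19938). The lowest adjusted p among the members was 0.364, for Mobp, and 11 members (34.4%) had an unadjusted p under 0.05, as did 8.91% of all genes. Over all 19938 genes 63.0% of the differences were also above 0, with a median of 0.034. That share depended on dim genes and on the scaling of the arrays. Among the 9969 genes brighter than the median gene, 55.3% were above 0, with a median of 0.011. All 28 members among them were above 0. With arrays centred on their medians, 44.5% of all genes and 30 members were above 0. In a whole-tissue extract, fewer or more cells of a type and less or more RNA per cell cannot be told apart.

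The difference was uneven among the KO arrays. Averaged over the 32 members, KO replicate 4 lay 0.031 above the WT mean, within the WT arrays, which lay at 0.067, -0.081 and 0.013. KO replicates 5 and 6 lay 0.22 and 0.29 above it, beyond every WT array. Replicate 4 exceeded all WT arrays in 8 members, replicate 5 in 27 and replicate 6 in 29. The same shares over all genes were 30.0%, 35.9% and 40.8%. Replicate 6 was the highest of the 6 hippocampal arrays for 20 members and replicate 5 for 11.

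The median difference of the members was 0.12 without KO replicate 6, with 30 of 32 above 0, and 0.23 without KO replicate 4, with all 32 above 0. With array weights, which gave replicate 4 a weight of 4.31 and replicates 5 and 6 weights of 0.54 and 0.47, the median was 0.069 and 23 members lay above 0. KO and WT arrays did not overlap for 5 members, Sirt2, Hapln2, Plekhb1, Tmem125 and Ndrg1, all higher in KO. Such a gap with KO higher was found in 9.39% of all genes.

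**Figure D1:**
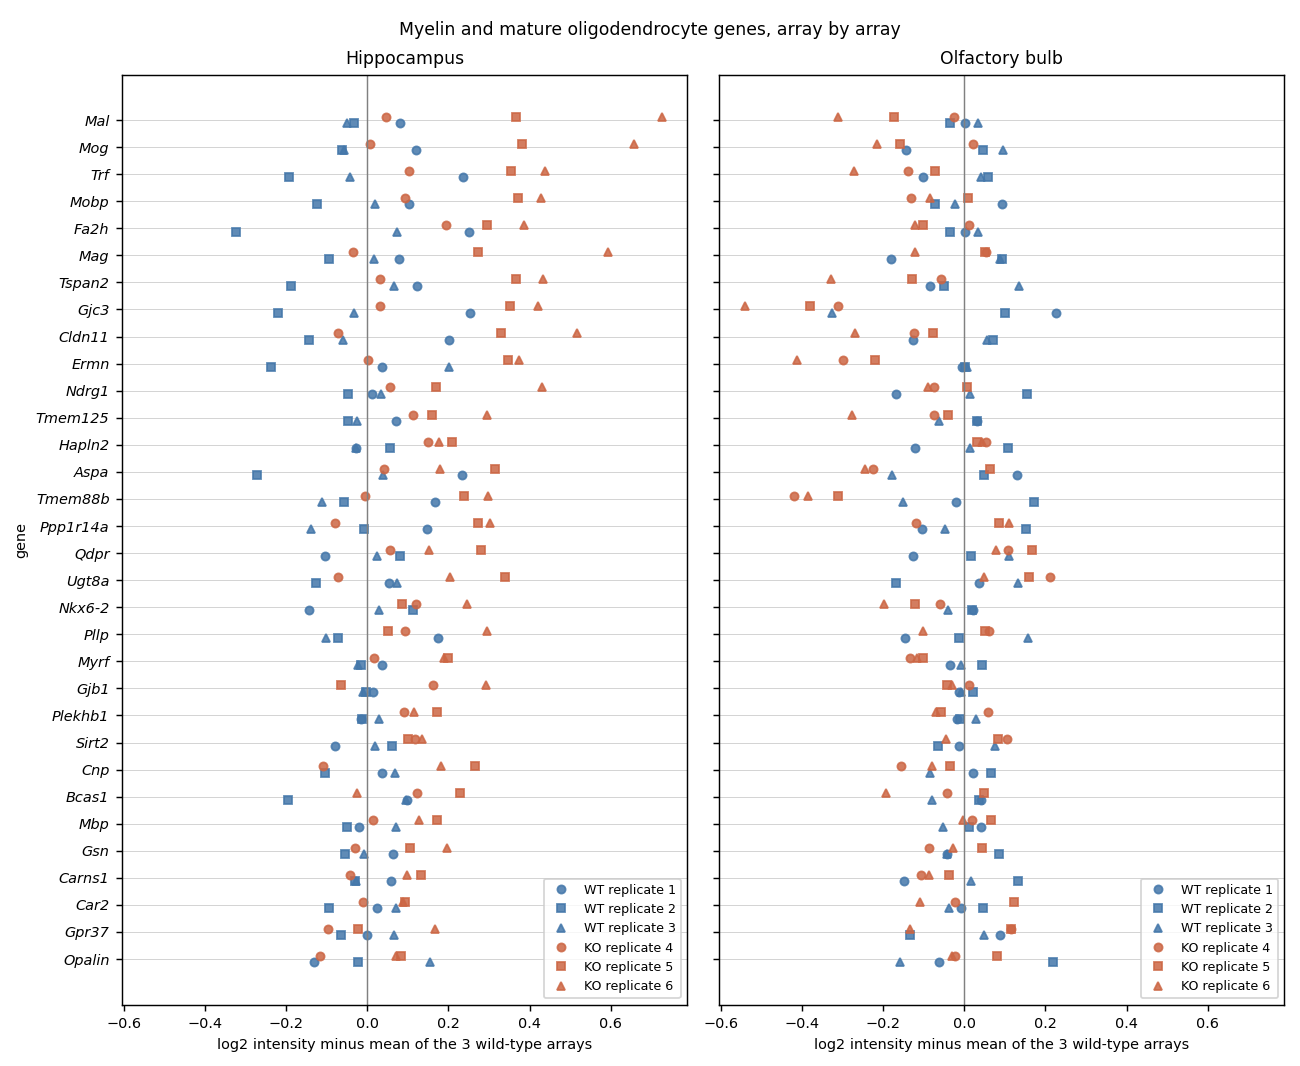
Log2 intensity of each of the 32 members (rows) on each array, minus the mean of the 3 WT arrays of that tissue, with hippocampus on the left and olfactory bulb on the right. Blue symbols are WT replicates 1 to 3 and orange symbols KO replicates 4 to 6. In hippocampus KO replicates 5 and 6 lie above all WT arrays in 27 and 29 members, while replicate 4 does so in 8.

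The 9 genes grouped as compact myelin and membrane proteins had a median difference of 0.19 in hippocampus. Mal, a proteolipid of membrane rafts, read 8.91, 8.79 and 8.78 on the WT arrays and 8.87, 9.19 and 9.55 on the KO arrays, a difference of 0.38 (SE 0.127, adjusted p = 0.433). The KO array at 8.87 lay inside the WT range, and the other KO values lay above it. Mobp, a basic protein of compact myelin, read 9.21, 8.98 and 9.13 in WT and 9.20, 9.48 and 9.53 in KO (difference 0.30, SE 0.092, adjusted p = 0.364). Cldn11, the claudin of the tight junctions between myelin layers, read 9.46, 9.11 and 9.20 against 9.18, 9.58 and 9.77 (difference 0.26, SE 0.128). In both genes KO replicate 4 was within the WT range. Tspan2, a tetraspanin, showed the same order, at 8.17, 7.87 and 8.12 in WT and 8.08, 8.42 and 8.49 in KO (difference 0.28, SE 0.114).

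Mbp, which binds the cytoplasmic faces of the membrane together, was among the least different members. It read 10.58, 10.56 and 10.68 in WT and 10.62, 10.78 and 10.73 in KO, a difference of 0.10 (SE 0.067, adjusted p = 0.665). Opalin, a sialylated membrane protein of oligodendrocytes, overlapped fully, at 6.81, 6.92 and 7.10 in WT and 6.83, 7.03 and 7.01 in KO. Tmem125 did not overlap, with 6.77, 6.65 and 6.67 in WT and 6.81, 6.86 and 6.99 in KO (difference 0.19, SE 0.078, adjusted p = 0.529). The remaining genes of this group, Pllp (plasmolipin, a proteolipid) and Tmem88b, differed by 0.15 and 0.18.

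Of the 5 genes of the inner and outer surfaces, the loops and the nodal matrix, Mog differed most. Mog, an immunoglobulin-like protein of the outermost layer, read 8.55, 8.37 and 8.37 in WT and 8.44, 8.81 and 9.08 in KO (difference 0.35, SE 0.129, adjusted p = 0.489). The SD of its KO arrays was 0.33, close to the difference of the means, and KO replicate 4 lay inside the WT range. Mag, the lectin-like adhesion protein that faces the axon, read 9.07, 8.90 and 9.01 against 8.96, 9.27 and 9.58 (difference 0.28, SE 0.127). Ermn, an actin-binding protein of the oligodendrocyte, read 8.14, 7.86 and 8.30 against 8.10, 8.45 and 8.47 (difference 0.24, SE 0.112). Cnp, the phosphodiesterase that keeps cytoplasmic channels open, differed by 0.11 (SE 0.092) with KO replicate 4, at 9.88, level with the lowest WT array. Hapln2, a link protein of the hyaluronan matrix at nodes, was steadier. Its KO values of 7.22, 7.28 and 7.24 all lay above the WT values of 7.04, 7.12 and 7.04 (difference 0.18, SE 0.069, adjusted p = 0.505).

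The 7 genes of lipid synthesis and metabolism had a median difference of 0.16. Trf, the iron carrier transferrin, read 9.74, 9.31 and 9.46 in WT and 9.61, 9.86 and 9.94 in KO (difference 0.30, SE 0.109, adjusted p = 0.489). Fa2h, which hydroxylates the fatty acids of myelin galactolipids, read 8.42, 7.85 and 8.24 against 8.36, 8.47 and 8.56 (difference 0.29, SE 0.112, adjusted p = 0.499). In Fa2h the WT arrays spread more than the KO arrays, with WT replicate 2 lowest. Aspa, which frees acetate from N-acetylaspartate, and Ugt8a, which makes galactosylceramide, differed by 0.18 and 0.16. Qdpr, which regenerates tetrahydrobiopterin, differed by 0.16, while Carns1 (carnosine synthase) and Car2 (a carbonic anhydrase) differed by 0.062 and 0.057.

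Among the other roles, the gap junction genes Gjc3 and Gjb1, both connexins of oligodendrocytes, differed by 0.27 (SE 0.145) and 0.13 (SE 0.080). The transcription factor genes Myrf, which drives the myelin programme, and Nkx6-2, a homeobox gene, differed by 0.14 (SE 0.067) and 0.15 (SE 0.077). Of the 7 genes of signalling and the cytoskeleton, Ndrg1 differed most, with 9.30, 9.24 and 9.32 in WT and 9.34, 9.45 and 9.72 in KO (difference 0.22, SE 0.097, adjusted p = 0.545). Its KO values all lay above the WT values, the lowest by a small margin. Sirt2, a deacetylase of the myelin sheath, read 10.15, 10.29 and 10.24 against 10.34, 10.33 and 10.36 (difference 0.12, SE 0.069), the smallest SD of any member in KO hippocampus. Plekhb1 (0.13), Ppp1r14a, an inhibitor of a protein phosphatase (0.16), Bcas1, a marker of oligodendrocytes that begin to myelinate (0.11), Gsn, the actin-severing protein gelsolin (0.091), and Gpr37, a receptor of oligodendrocytes (0.016), differed less.

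In olfactory bulb the members leaned the other way by a small amount. None passed the test, where 0.411% of all genes passed (82 of 19938), and 3 members (9.38%) had an unadjusted p under 0.05, close to the 11.3% of all genes. Of the 32, 23 had a lower mean in KO and 9 a higher one, with a median of -0.066 and a range of -0.41 (Gjc3) to 0.14 (Ugt8a). Over all genes 44.5% of the differences lay above 0, with a median of -0.016. Genes brighter than the median gene leaned the opposite way to the members. Of these genes 58.3% lay above 0, with a median of 0.020, against 7 of the 28 members among them. The median was -0.039 without WT replicate 2 (11 above 0) and -0.040 without KO replicate 6 (12 above 0). The number above 0 was 5 without WT replicate 1 and 5 without KO replicate 5. KO replicates 4, 5 and 6 lay 0.056, 0.028 and 0.14 below the WT mean over the members, and the WT arrays lay between -0.029 and 0.036. Replicate 6, from the animal whose hippocampus was highest, was the lowest of the 6 bulb arrays for 14 members. For the members, KO replicate 5 thus lay just inside the WT range. Neuron and Schwann cell markers lay below every WT array on all KO bulb arrays, while markers of the other types overlapped. The list means around the WT mean ran from -0.089 to -0.025 for 6 neuron markers (-0.019 to 0.015 in WT) and from -0.12 to -0.033 for 7 astrocyte markers (-0.048 to 0.027 in WT). They ran from -0.28 to -0.18 for 3 Schwann cell markers (-0.12 to 0.24 in WT), from -0.22 to -0.14 for 7 meningeal markers (-0.23 to 0.14 in WT) and from -0.14 to -0.023 for 4 endothelial markers (-0.061 to 0.077 in WT). Microglia markers ran from -0.035 to 0.0029 (-0.033 to 0.029 in WT) and choroid plexus markers from -0.23 to 0.043 (-0.0039 to 0.0029 in WT). Their part in the members' difference was not tested.

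Tmem88b had the lowest adjusted p in the bulb. It read 8.10, 8.29 and 7.97 in WT and 7.70, 7.81 and 7.74 in KO (difference -0.37, SE 0.101, adjusted p = 0.188). Ermn read 7.77, 7.78 and 7.78 against 7.48, 7.56 and 7.36 (difference -0.31, SE 0.112, adjusted p = 0.336). In both genes every KO array lay below every WT array. Gjc3 had the largest difference, with 9.45, 9.32 and 8.89 in WT and 8.91, 8.84 and 8.68 in KO (difference -0.41, SE 0.145, adjusted p = 0.332), and the groups overlapped through WT replicate 3. Myrf read 7.85, 7.93 and 7.88 against 7.75, 7.78 and 7.77, with a difference of -0.12 (SE 0.067). Nkx6-2 read 7.50, 7.49 and 7.43 against 7.41, 7.35 and 7.28, with a difference of -0.13 (SE 0.077). Both transcription factor genes were without overlap between genotypes. With Tmem88b and Ermn they made 4 members lower in KO without overlap, as were 8.87% of all genes.

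Other members of the bulb lay close to WT. Mbp differed by 0.028 (SE 0.067), Opalin by 0.0087 (SE 0.100), Pllp by 0.0023 (SE 0.099) and Mag by -0.0054 (SE 0.127). Ugt8a and Qdpr, both enzyme genes, lay higher in KO by 0.14 (SE 0.106) and 0.12 (SE 0.082). Tspan2 (-0.17), Mal (-0.17), Trf (-0.16), Cldn11 (-0.16) and Mog (-0.12), which lay higher in the KO hippocampus, lay lower here, and none of these differences passed the test.

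**Figure D2:**
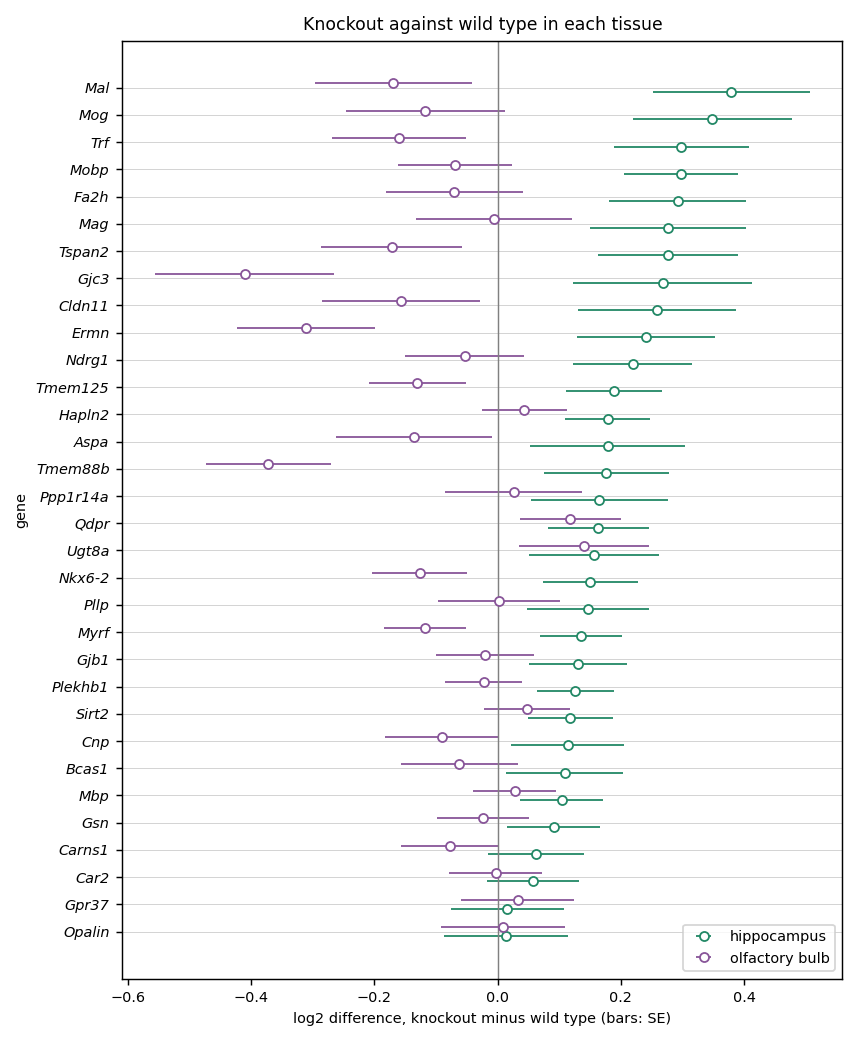
Difference in log2 intensity, KO minus WT, of each of the 32 members in hippocampus (green) and olfactory bulb (purple), in the order of the hippocampal difference. Points are differences of group means with 3 arrays each, bars are limma standard errors, and open symbols mark differences that did not pass an adjusted p of 0.05. All hippocampal points lie above 0, from 0.013 to 0.38, and 23 of the bulb points lie below it.

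Whether the KO effect differed between the tissues was tested in the same model. The difference of effects, hippocampus minus bulb, was above 0 for 31 of 32 members, with a median of 0.23, and none passed (lowest adjusted p = 0.350, for Tmem88b, with 13 at an unadjusted p under 0.05, 40.6% against 10.7% of all genes). Over all genes 60.8% lay above 0, with a median of 0.044, and 0.015% passed (3 of 19938). Among genes brighter than the median gene 46.8% lay above 0, with a median of -0.010, against 27 of the 28 members among them. The largest values were those of Gjc3 (0.68, SE 0.206), Ermn (0.55, SE 0.158), Mal (0.55, SE 0.180) and Tmem88b (0.55, SE 0.143), and Gpr37 alone lay below 0, at -0.017. With the replicate block, which pairs the tissues of an animal, 0 of all genes passed, and 1778 had an unadjusted p under 0.05. With the tissues of each animal averaged first, 28 members lay higher in KO with a median of 0.052, and none passed (lowest adjusted p = 0.442, for Qdpr), where 0.577% of all genes did (115 of 19938). At an unadjusted p under 0.05 there were 3 members, 9.38% against 9.93% of all genes. That median was 0.027 without the WT animal of bulb replicate 1 (20 above 0), 0.030 without KO animal 5 (22 above 0), 0.079 without KO animal 4 (30 above 0) and 0.031 with arrays centred on their medians (24 above 0). Over the alternatives run, no member passed in any of these 4 genotype comparisons.

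The tissues themselves were compared within each genotype. In WT animals 8 members were higher in hippocampus and 6 lower, at a limma adjusted p under 0.05. In the same comparison 17.5% of all genes were higher and 23.4% lower. Of the members' differences 16 lay above 0, and the median over all genes was -0.071. Gpr37 read 9.09, 9.03 and 9.16 in hippocampus and 8.31, 8.08 and 8.27 in bulb, a difference of 0.88 or 1.84-fold (SE 0.092, adjusted p = 1.63e-06). Opalin read 6.81, 6.92 and 7.10 against 6.20, 6.48 and 6.11, with a difference of 0.68 (SE 0.100, adjusted p = 5.63e-05). The arrays of the tissues did not overlap in either gene. The bulb values of Opalin lay below the medians of the bulb arrays.

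Tspan2 (0.48), Mbp (0.35), Qdpr (0.33), Ugt8a (0.32), Ermn (0.32) and Car2 (0.21) were also higher in WT hippocampus. The call of Car2 was lost with the animal as replicate block, by animal code (limma adjusted p = 0.058) and by title number (0.0614). Ppp1r14a passed with the block by animal code (0.23, adjusted p = 0.0373) but not by title number. Carns1 was lowest relative to the bulb, at 7.08, 6.99 and 6.99 in hippocampus and 7.65, 7.93 and 7.82 in bulb, a difference of -0.78 or 1.72-fold (SE 0.078, adjusted p = 1.08e-06). Gsn read 7.76, 7.65 and 7.69 against 8.23, 8.36 and 8.23 (difference -0.57, SE 0.075, adjusted p = 1.72e-05). Gjc3 (-0.57), Tmem88b (-0.50), Fa2h (-0.46) and Aspa (-0.37) were lower in hippocampus too. The number higher in hippocampus was 5 without WT hippocampus replicate 1 and 5 without WT hippocampus replicate 3. Over all 19938 genes those numbers were 3118 and 3051, against 3480 in the main fit. Centring each array on its median gave 11 higher and 5 lower. All genes shifted the same way, from 3480 higher and 4668 lower to 4417 higher and 3274 lower. Gpr37, Opalin, Tspan2, Mbp, Qdpr, Fa2h, Gjc3, Tmem88b, Gsn and Carns1 passed under every alternative run that kept them. A filter on dim genes left out 4 of the 32 members, Opalin, Gjb1, Hapln2 and Tmem125.

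In KO animals 19 members were higher in hippocampus and 2 lower, where 19.2% of all genes were higher and 19.9% lower. The median of the members was 0.31 (28 above 0) and that of all genes 0.013. The 8 members higher in WT hippocampus were higher again, with Tspan2 at 0.93 (SE 0.114), Ermn at 0.88 (SE 0.112), Gpr37 at 0.86 (SE 0.092) and Opalin at 0.68 (SE 0.100). Ermn read 8.10, 8.45 and 8.47 in KO hippocampus and 7.48, 7.56 and 7.36 in KO bulb, 1.83-fold apart (adjusted p = 1.32e-05). Mobp read 9.20, 9.48 and 9.53 against 8.79, 8.92 and 8.83 (difference 0.56, SE 0.092, adjusted p = 0.000161). Both genes were without overlap between the tissues.

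The other members higher in KO hippocampus that had not passed in WT were Mog (0.46), Cldn11 (0.44), Mal (0.44), Mag (0.42), Bcas1 (0.36), Ppp1r14a (0.36), Cnp (0.35), Ndrg1 (0.35), Myrf (0.22) and Nkx6-2 (0.21). Nkx6-2 lost its call with the animal as replicate block (adjusted p = 0.0772). Gsn (-0.46) and Carns1 (-0.64) were lower in hippocampus, as in WT. Of the 14 members called in WT and the 21 called in KO, 10 were called in both with the same direction. For the 11 members called in KO alone, the interaction itself gave adjusted p values of 0.375 to 0.755, and for the 4 called in WT alone 0.350 to 0.531, so a difference between the genotypes was not shown for them. The number higher in KO hippocampus was 10 without KO hippocampus replicate 6 and 11 with array weights. Over all 19938 genes it was 3461 and 4827, against 3838 in the main fit. With array weights the members called thus became fewer while the genes called became more. Mbp, Mobp, Opalin, Ermn, Tspan2, Gpr37, Qdpr, Bcas1, Gsn and Carns1 passed under every alternative run that kept them.

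**Figure D3:**
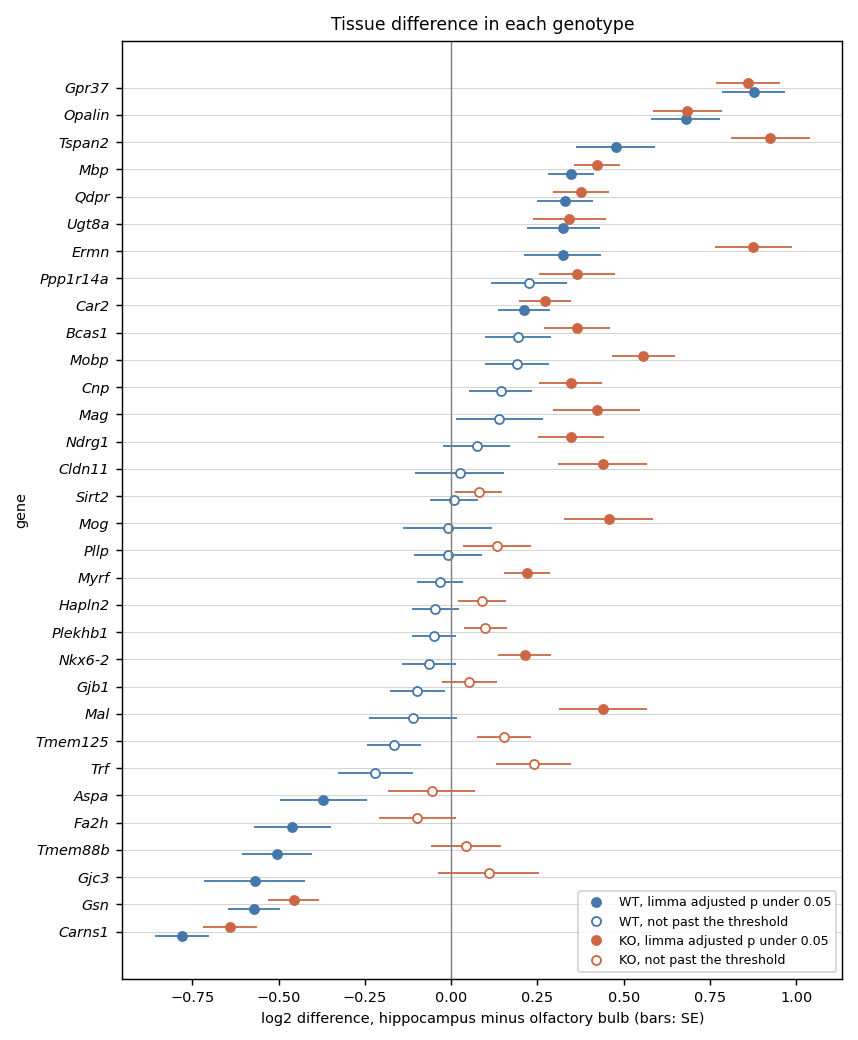
Difference in log2 intensity, hippocampus minus olfactory bulb, of each of the 32 members in WT (blue) and KO (orange) animals, in the order of the WT difference. Points are differences of group means with 3 arrays each, bars are limma standard errors, and filled symbols passed an adjusted p of 0.05. Gpr37 and Opalin lie far to the right and Gsn and Carns1 far to the left in both genotypes, while Mal and Mog lie at -0.11 and -0.0096 in WT and at 0.44 and 0.46 in KO.

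The spread of the members between arrays of a group was widest in KO hippocampus. Their median SD was 0.14 there, against 0.099 in WT hippocampus, 0.099 in WT bulb and 0.082 in KO bulb. The medians over all genes were 0.100, 0.085, 0.097 and 0.079 in the same order. In KO hippocampus the SD ran from 0.018 (Sirt2) to 0.34 (Mal), and the members with the widest spread after Mal were Mog (0.33), Mag (0.31) and Cldn11 (0.30).

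Other oligodendrocyte and myelin genes, 34 measured beside the members, had smaller differences of mostly the same sign. In hippocampus 29 of the 34 had a higher mean in KO, with a median of 0.096. None passed the limma test, and 7 (20.6%) had an unadjusted p under 0.05, against 8.91% of all genes. Erbb3, a neuregulin receptor, differed by 0.33 (SE 0.080, adjusted p = 0.159), Anln, a scaffold protein gene, by 0.27 and Septin4, of the septin filaments, by 0.24. In bulb 10 of 34 lay above 0 with a median of -0.034. None passed, and 6 (17.6%) had an unadjusted p under 0.05, against 11.3% of all genes. The largest differences were those of the transcription factor genes Zfp488 (-0.32, SE 0.130) and Sox10 (-0.19, SE 0.084) and of Gamt, a creatine synthesis gene (-0.19, SE 0.088). Between the tissues this list was mixed, with 5 higher (14.7%) and 13 lower (38.2%) in WT hippocampus, against 17.5% and 23.4% of all genes. In KO 7 were higher (20.6%) and 9 lower (26.5%), against 19.2% and 19.9%. Tppp, a tubulin-binding protein of oligodendrocytes, was higher in hippocampus by 1.25 in WT and 1.19 in KO. Apod, a lipid carrier, was lower in hippocampus by a difference of -1.17 in WT and -1.13 in KO, and Erbb3 by a difference of -1.50 in WT. Pex5l, a peroxisomal receptor homologue, was higher by 1.45 in KO hippocampus. The tissue difference in KO minus that in WT was 0.42 for Erbb3 and 0.36 for Pex5l. Neither passed (limma adjusted p = 0.353 and 0.375), so a difference between the genotypes was not shown for them.

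The 15 genes of precursors and newly formed oligodendrocytes had medians of 0.024 in hippocampus and -0.027 in bulb. None passed the limma test. At an unadjusted p under 0.05 there were 1 gene in hippocampus (6.67%) and 2 in bulb (13.3%), near the 8.91% and 11.3% of all genes. Enpp6, a phosphodiesterase of newly formed oligodendrocytes, differed by 0.34 in hippocampus (SE 0.094, adjusted p = 0.258), Neu4, a sialidase, by 0.16 and Bmp4 by -0.14. Bmp4, a secreted signal that holds precursors back, differed by -0.48 in bulb (SE 0.168, adjusted p = 0.326), and Pdgfra, the growth factor receptor of precursors, by -0.25 (SE 0.077, adjusted p = 0.258) and Gpr17, a receptor of committed precursors, by -0.19. Between the tissues 2 genes were higher (13.3%) and 7 lower (46.7%) in WT hippocampus, against 17.5% and 23.4% of all genes. In KO 4 were higher (26.7%) and 2 lower (13.3%), against 19.2% and 19.9%. Lhfpl3 differed by -1.86 in WT and -1.81 in KO, Rras2, a Ras family GTPase, by 0.88 and 0.85, and Fyn, a kinase, by -0.71 in both.

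Of 13 regulators of oligodendrocyte differentiation, Id4, which holds bHLH factors off DNA, fell in KO bulb by 0.34 on the log2 scale (SE 0.065, adjusted p = 0.0375). That call passed in 6 of 13 alternatives and was lost when any 1 of the 6 bulb arrays was left out. Id4 also lay lower in hippocampus, with a difference of -0.24 (SE 0.065, adjusted p = 0.258), and averaged over the tissues by a difference of -0.29 (SE 0.051, adjusted p = 0.0269, passing in 7 of 13 alternatives). At an unadjusted p under 0.05 there were 4 of the 13 in bulb (30.8%, against 11.3% of all genes) and 1 in hippocampus (7.69%, against 8.91%). Averaged over the tissues there were 3 (23.1%, against 9.93%). Around the WT mean, the list mean ran from -0.099 to -0.033 on the KO bulb arrays, below the WT range of -0.027 to 0.023. On the hippocampal arrays it ran from -0.082 to 0.016 in KO and from -0.025 to 0.029 in WT. In hippocampus Hes5, a Notch target, differed by 0.15 and Zeb2 by -0.12, and neither passed. Between the tissues 3 regulators were higher and 2 lower in WT hippocampus (23.1% and 15.4%, against 17.5% and 23.4% of all genes). In KO 4 were higher and 2 lower (30.8% and 15.4%, against 19.2% and 19.9%). Lingo1, a membrane protein that restrains myelination, differed by 1.32 in WT and 1.30 in KO, Tcf7l2, a Wnt pathway factor, by -0.62 and -0.52, and Id4 by 0.61 and 0.72.

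The 18 genes of cholesterol synthesis, which supplies a main lipid of myelin, had medians of 0.014 in hippocampus (11 above 0) and 0.031 in bulb (12 above 0). None passed the limma test, with 0 and 1 (5.56%) at an unadjusted p under 0.05, against 8.91% and 11.3% of all genes. The largest differences were those of Cyp51 (-0.15), Lss (0.15) and Fdps (0.11) in hippocampus and of Ebp (0.26), Msmo1 (0.18) and Mvd (-0.13) in bulb. In WT 9 were higher (50%) and 1 lower (5.56%) in hippocampus, against 17.5% and 23.4% of all genes. In KO 10 were higher (55.6%) and 1 lower (5.56%), against 19.2% and 19.9%. Msmo1, a sterol oxidase, differed by 1.10 in WT (SE 0.089) and 0.96 in KO, and Lss, which closes the sterol rings, by -0.64 (SE 0.090) and -0.57. Sc5d was next in WT (0.49) and Fdps in KO (0.46). Of the 11 genes of the axonal node and paranode, none passed between genotypes, with medians of -0.015 in hippocampus and 0.060 in bulb. The unadjusted p lay under 0.05 for 0 of them in hippocampus and 1 in bulb (9.09%), against 8.91% and 11.3% of all genes. Cntn2 (0.16), Epb41l3 (0.070) and Cntnap1 (-0.063) differed most in hippocampus and Kcna1 (0.22), Cntn2 (0.13) and Ank3 (-0.079) in bulb. Between the tissues 4 were higher (36.4%) and 3 lower (27.3%) in WT hippocampus, against 17.5% and 23.4% of all genes. In KO 4 were higher (36.4%) and 3 lower (27.3%), against 19.2% and 19.9%. Epb41l3, a membrane scaffold of the paranode, differed by -1.44 in WT (SE 0.061) and -1.35 in KO. Cntnap1, the axonal adhesion protein of the paranode, differed by 1.33 (SE 0.099) and 1.20, and Scn8a, a nodal sodium channel, by 0.95 and 0.87.

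Markers of other cell types were read on the same arrays, and some varied widely while others stayed level. In hippocampus the mean of 7 meningeal and fibroblast markers ran from -0.30 to 0.34 around the WT mean on the WT arrays and from -0.23 to -0.20 on the KO arrays. That of 7 choroid plexus markers ran from -0.17 to 0.35 in WT, with replicate 1 highest, and from 0.023 to 0.17 in KO, and that of 4 endothelial markers from -0.081 to 0.10 and from -0.21 to -0.053. Astrocyte, microglia and neuron markers stayed between -0.028 and 0.052 on all hippocampal arrays, and Schwann cell markers ran from -0.23 to 0.14 in WT and from -0.12 to 0.059 in KO. In bulb 5 of 5 markers of olfactory ensheathing glia, which share genes such as Sox10 with oligodendrocytes, were higher than in hippocampus in both genotypes, with median differences of -0.91 in WT and -0.53 in KO, hippocampus minus bulb. On the bulb arrays their mean ran from -0.086 to 0.070 in WT and from -0.16 to -0.049 in KO. The part of these markers in the differences of the members was not tested.

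**Figure D4:**
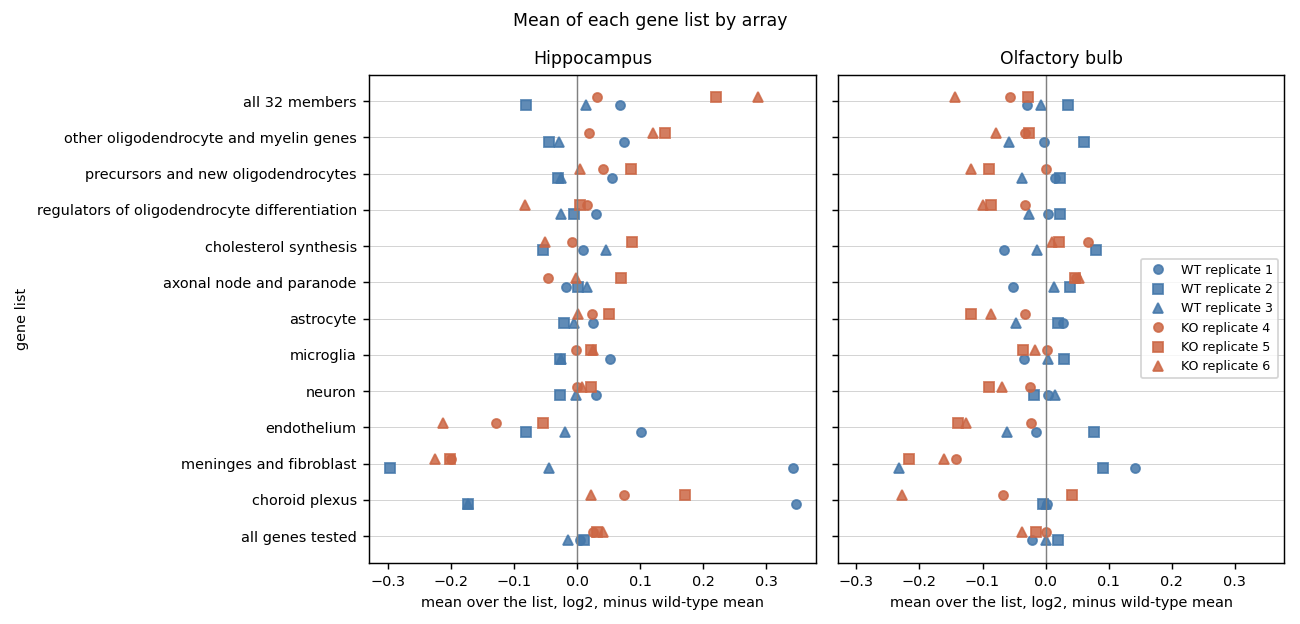
Mean log2 intensity over each gene list on each array, minus the WT mean of that tissue, in hippocampus (left) and olfactory bulb (right). Blue symbols are WT replicates 1 to 3 and orange symbols KO replicates 4 to 6. The 32 members lie at 0.22 and 0.29 on KO hippocampus replicates 5 and 6, and meningeal and choroid plexus markers spread widely over the WT hippocampal arrays.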

How the data were processed

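Total RNA from whole hippocampus and olfactory bulb carried a biotin label, and each sample had its own 1-colour array. The authors deposited log2 intensities for 35556 probe sets, made with RMA and the oligo package per the submitters' processing notes. RMA corrects background, normalizes between arrays and summarises probes, which compresses differences near background. The notes give no versions and do not say if hippocampus and bulb arrays were normalized in 1 run. The platform annotation named 21789 probe sets with 1 symbol, 1621 with several were left out and 12146 were not listed. Of the single-symbol probe sets 21698 matched RefSeq genes of GRCm38.p6, with 0 symbols changed. Where a gene had several probe sets (999 genes), the brightest on average over all arrays was used, leaving 19938 genes. No gene was filtered out, and 0 columns belonged to another series. The number of arrays, 3 per group, limits the precision.

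Groups were tested on the deposited log2 values with limma 3.58.1 (R 4.3.3, lmFit and eBayes), in 1 model of 4 group means over 12 arrays, with Benjamini-Hochberg adjustment over all genes at 0.05. For the average over tissues, each animal's tissues were averaged first. The pipeline was tested on simulated data. Tissues were paired by the animal code of the labels. For a pair of WT animals the code and the title number disagree, and both were run as blocks. Same-animal deviations from the group means correlated across genes with r of -0.26 to 0.12 by code and -0.21 to 0.25 by title number. WT hippocampus and bulb replicates are numbered by title. Motif letters were searched in RefSeq promoters on both strands. Protein sequences were not analysed here. Tables were read with data.table (release 1.17.8) and pandas 2.3.3, and figures drawn with matplotlib 3.10.9 in Python 3.11.15.

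The members, the lists and the tests were chosen with earlier results of these data known. The text names Rasgrf2, all 32 members, and from each other list the genes past the threshold between genotypes (at most 6) or else the 3 largest differences, and the 3 largest between tissues. For the difference of effects only members, Erbb3 and Pex5l are named, and for the average over tissues only members and Id4. Alternatives were median centring, quantile normalization, array weights, trend and robust moderation, the mean of a gene's probe sets, a filter on dim genes, groups fitted alone, the replicate block and leaving out each replicate.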

Additional observations from a re-analysis of the deposited data

How the results depend on the processing

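Between genotypes no member passed under any alternative, with adjusted p down to 0.0857 in hippocampus, 0.093 in bulb, 0.164 for the difference of effects and 0.278 averaged over tissues. In hippocampus 30 to 32 members lay above 0 when a replicate was left out, 30 with arrays centred on their medians and 23 with array weights. In bulb 5 to 12 members lay above 0 when a replicate was left out. The median of the members averaged over tissues ran from 0.027 to 0.079 with an animal left out. The counts over all genes moved more. In hippocampus 336 genes passed with array weights, 28 with the 2 groups fitted alone and 30 to 43 with a replicate left out. In bulb 136 passed with trend and robust moderation, 36 with the 2 groups alone and 35 to 105 with a replicate left out. For the difference of effects 12 passed with array weights, 0 to 4 with a replicate left out, and 0 with the replicate block by animal code and 0 by title number. Averaged over tissues 181 passed with trend and robust moderation and 69 to 134 with an animal left out. Members higher in hippocampus numbered 5 to 9 in WT and 10 to 19 in KO with a replicate left out, and 11 in KO with array weights. Over all genes the same numbers were 3051 to 3304, 3167 to 3748 and 4827. The replicate block changed no member's call other than those of Car2, Ppp1r14a and Nkx6-2 given in the text. The causes were not tested. Leaving out a replicate leaves 2 arrays in a group of 3, and dim members such as Gjb1 lie below the array medians, where RMA compresses differences.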
